A study of Mus musculus with 2 samples.

Results

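Chromatin accessibility was examined at the loci of Prox1 and Lmx1b, a pair of homeodomain transcription factor genes of the mouse. An interval of the deposited table was assigned to either gene if the nearest protein-coding transcription start site (TSS) to its centre was that of the gene, or if it overlapped the gene body in the GENCODE annotation. This gave 69 of 119502 intervals, 32 at Prox1 and 37 at Lmx1b. The rule used position only and no measured value. All 69 were retained, and 68 had a mean normalised count of at least 10.

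The assay was ATAC-seq, which cuts and tags open DNA with the transposase Tn5. There was 1 group of 2 replicate libraries, so no condition was compared with another. The cells were neural progenitors from the mouse embryonic stem cell line Olig2-mKate2, whose fluorescent reporter mKate2 follows Olig2, a transcription factor of motor neuron progenitors. They were treated with bFGF and LGK, then with bFGF, CHIR99021, SB-431542 and DMH1, and to day 5 with 100 nM retinoic acid and 100 nM of the hedgehog agonist SAG. Live mKate2-positive cells were sorted and 50000 entered each transposition. The sorted cells were a mixture, since mKate2 also marks neurons recently formed from these progenitors, and NKX2.2 is present in part of the OLIG2-positive cells. In such bulk libraries, more open cells and more cuts per open cell cannot be told apart.

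PROX1 is the vertebrate relative of the fly protein Prospero. It is best known for specifying lymphatic endothelium and for its part in liver, lens and neurogenesis. LMX1B belongs to the LIM homeodomain family, whose LIM domains bind partner proteins, and is known for dorsal limb patterning and for the development and upkeep of serotonergic neurons. Genes of this kind often lie among many regulatory elements. Promoters and distal elements both appear in ATAC-seq as intervals with many fragments.

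Sequences of dense distal intervals inside the genes are shown. Distal intervals inside the gene held 57.3% of the normalised counts at Lmx1b and 34.4% at Prox1. Upstream intervals held 34.7% at Prox1, and the densest of them is not shown. Each sequence is the central 300 bases on the plus strand of mm10, read from the RefSeq genome of the same assembly. Capitals mark matches on either strand to any of 6 short motifs: forkhead TGTTTAC, E-box CANNTG, homeodomain TAATTA, GLI GACCACCCA, SOX ATTGTT and NKX2 CACTTGA. An NKX2 match always contains an E-box match.
Prox1 intron 3 interval, chr1:190148922-190149221: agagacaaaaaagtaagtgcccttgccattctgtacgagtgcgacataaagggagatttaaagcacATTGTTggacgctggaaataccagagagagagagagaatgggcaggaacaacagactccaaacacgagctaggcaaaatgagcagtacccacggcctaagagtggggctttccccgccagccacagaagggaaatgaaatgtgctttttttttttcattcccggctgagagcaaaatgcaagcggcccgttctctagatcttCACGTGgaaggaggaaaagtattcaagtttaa
Lmx1b intron 2 interval, densest, chr2:33592928-33593227: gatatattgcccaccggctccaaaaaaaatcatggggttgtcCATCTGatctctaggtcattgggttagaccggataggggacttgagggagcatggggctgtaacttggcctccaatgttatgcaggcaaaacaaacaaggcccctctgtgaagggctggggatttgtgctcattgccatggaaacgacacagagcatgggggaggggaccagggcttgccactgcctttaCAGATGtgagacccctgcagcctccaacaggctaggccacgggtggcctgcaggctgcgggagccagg
Lmx1b intron 2 interval, next densest, chr2:33595026-33595325: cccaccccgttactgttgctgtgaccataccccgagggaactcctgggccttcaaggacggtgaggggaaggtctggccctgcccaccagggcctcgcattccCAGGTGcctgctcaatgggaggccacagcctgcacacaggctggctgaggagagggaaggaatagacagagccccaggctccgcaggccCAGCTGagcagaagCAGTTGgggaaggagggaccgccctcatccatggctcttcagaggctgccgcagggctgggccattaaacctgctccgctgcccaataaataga
The Prox1 intron 3 window held 1 E-box match and 1 SOX match. The Lmx1b windows held E-box matches alone, 2 in the densest interval and 3 in the next. A match describes the letters only.

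The promoters are shown for their CpG dinucleotides, which are in capitals. They are RefSeq sequences on build GRCm38.p6, on the minus strand, and end just before the outermost annotated RefSeq start of each gene. Those starts, at 190170827 for Prox1 and 33641208 for Lmx1b, lie upstream of the GENCODE starts at 190170714 and 33640511. Distances elsewhere use the GENCODE starts. The Prox1 window lies within the antisense gene Prox1os. The Lmx1b window lies within the antisense gene C130021I20Rik and holds a start of it.
Prox1 promoter, chr1:190170828-190171077: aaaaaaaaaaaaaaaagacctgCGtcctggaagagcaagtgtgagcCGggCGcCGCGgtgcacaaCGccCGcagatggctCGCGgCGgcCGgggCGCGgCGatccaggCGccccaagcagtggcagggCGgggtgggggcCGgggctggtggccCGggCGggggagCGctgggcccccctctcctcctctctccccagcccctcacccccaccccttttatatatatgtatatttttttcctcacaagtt
Lmx1b promoter, chr2:33641209-33641348: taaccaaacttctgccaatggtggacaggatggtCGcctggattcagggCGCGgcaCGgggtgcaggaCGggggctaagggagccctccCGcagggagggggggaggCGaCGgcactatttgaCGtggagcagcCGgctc
The Prox1 window held 20 CpG in 250 bases, against a median of 6 over 27025 RefSeq promoters cut to the same length. The Lmx1b window held 10 in 140 bases, against a median of 3. Fewer CpG were found in 82.3% and 83.4% of the promoters, respectively. The promoters were cut from their upstream end. At 140 bases they need not reach their own start, whereas the Lmx1b window ends at its start. The Lmx1b comparison may therefore be between unlike positions.

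At Prox1, the densest interval was not the promoter but a distal interval 19.9 kb upstream. Density was the count divided by the DESeq2 size factor of the library and by the interval's length in kb. This interval lies within the body of Prox1os, a non-coding gene on the opposite strand. It had 978 counts in replicate 1 and 994 in replicate 2. Its density was 1306 (95% exact Poisson interval 1226 to 1391) in replicate 1 and 1327 (1245 to 1412) in replicate 2. The mean was 1316 ± 14.3 normalised counts per kb (SD, n = 2), higher than 99.1% of all 104632 distal intervals. An interval was called distal where it overlapped no start of a protein-coding transcript.

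The Prox1 promoter interval, chr1:190168663-190171020, covered the starts of all 3 annotated protein-coding Prox1 transcripts and those of the antisense genes Prox1os and Gm28172. Its fragments cannot be divided among these starts. It had 2340 and 2194 counts. The density was 993 (95% exact Poisson interval 953 to 1034) in replicate 1 and 930.1 (892 to 969.8) in replicate 2. The mean was 961 ± 44.3 normalised counts per kb (SD, n = 2). It exceeded 60.9% of the 14870 TSS intervals. The upstream interval was thus denser in both libraries, by 1.37 ± 0.0781 times (SD, n = 2), with no overlap of the libraries' values. The order turns when length is not taken into account. The promoter interval then had 2267 ± 105 normalised counts (SD, n = 2) and the upstream interval 986 ± 10.7.

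The other dense Prox1 intervals lay close to the start or inside the gene. An interval 21.6 kb into the gene, chr1:190148344-190149798 in intron 3 of transcript Prox1-202, had 817 and 890 counts and a density of 587 ± 35.1 (SD, n = 2). Just upstream of the promoter and within Prox1os, chr1:190173000-190173812 had 337 and 381 counts and 442 ± 38.0 normalised counts per kb (SD, n = 2). Next to it, chr1:190174284-190175650 had 537 and 497 counts and 378 ± 20.9 normalised counts per kb (SD, n = 2). These 3 intervals and the ones above them were separated in the order of density, since the lower library of each exceeded the higher library of the next.

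The fifth distal interval of Prox1, chr1:190126986-190129864, lay 42.3 kb into the gene in intron 4. It had 928 and 932 counts over 2879 bases and a density of 323 ± 0.796 normalised counts per kb (SD, n = 2). Intron 4, the longest of the gene at 23.5 kb, held 4 intervals with densities from 138 to 323. Intron 2 held 3 intervals of 91.6 to 97.2, below the median of all distal intervals.

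**Figure D1:**
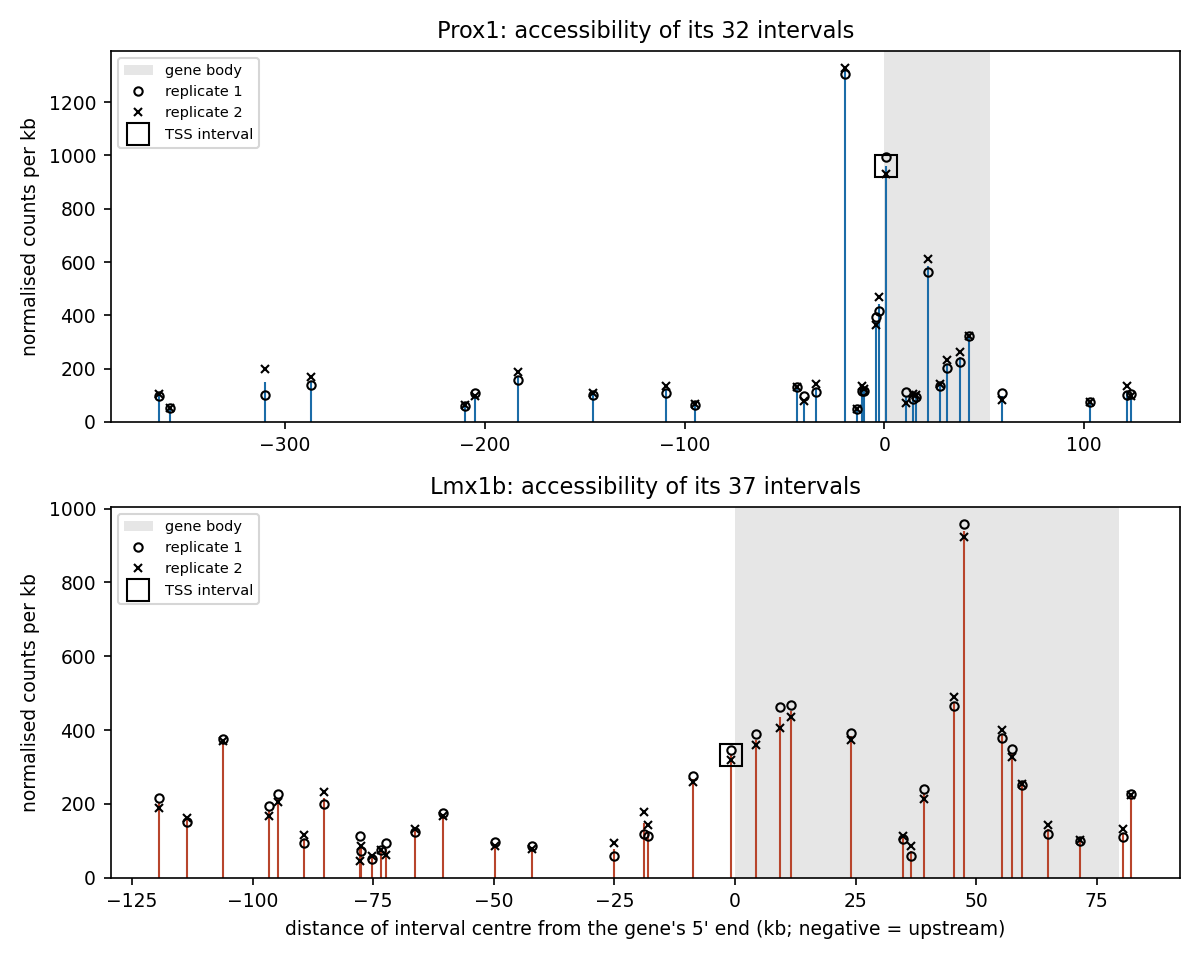
Density of each interval (normalised counts per kb, vertical axis) against the distance of its centre from the 5′ end of the gene (kb, negative upstream) at Prox1 and Lmx1b, with a line to the mean, a symbol for each replicate, the TSS interval boxed and the gene body in grey. At Prox1 the tallest line is the upstream interval at 1316, and at Lmx1b it is an interval within the gene body at 940.3.

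At Lmx1b, the densest interval was again distal. It was chr2:33592638-33593517, 47.4 kb into the gene in intron 2 of transcript Lmx1b-201, with 842 counts in replicate 1 and 813 in replicate 2. Its density was 957 (95% exact Poisson interval 894 to 1024) in replicate 1 and 923 (861 to 989) in replicate 2. The mean was 940.3 ± 23.8 normalised counts per kb (SD, n = 2), higher than 97.8% of all distal intervals. Both libraries placed it far above the next interval.

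The Lmx1b promoter interval, chr2:33639218-33643371, was 4154 bases long and covered the starts of both protein-coding Lmx1b transcripts and of the antisense gene C130021I20Rik. It also held coding exon sequence. It had 1434 and 1321 counts. The density was 345 (95% exact Poisson interval 328 to 364) in replicate 1 and 318 (301 to 335) in replicate 2. The mean was 332 ± 19.4 normalised counts per kb (SD, n = 2). It exceeded 20.2% of TSS intervals, whose median length was 1212 bases. In all, 9 distal intervals of Lmx1b had a higher mean density, although the library values of the last of them, 57.3 kb into the gene at 339 ± 14.4 (SD, n = 2), overlapped those of the promoter.

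The densest Lmx1b interval exceeded the promoter by 2.84 ± 0.0944 times in density (SD, n = 2). By normalised count per interval the order turned, with 1378 ± 80.7 at the promoter and 828 ± 21.0 at the distal interval (SD, n = 2). The density of a long interval is an average over its flanks, so its height at the start itself was not measured.

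The next Lmx1b intervals were close to each other in density. The interval 45.3 kb into the gene, chr2:33594816-33595534, had 334 and 352 counts and 477 ± 17.4 normalised counts per kb (SD, n = 2). At 11.5 kb, chr2:33628801-33629184 had 180 and 167 counts and 452 ± 24.2 (SD, n = 2). At 9.4 kb, chr2:33629953-33632341 had 1108 and 970 counts and 435 ± 41.1 (SD, n = 2). Library values of each neighbouring pair in this order overlapped. Both libraries of the interval at 45.3 kb lay above those of the interval at 9.4 kb, but only narrowly. In replicate 1 the densities were 464.7 and 464.0, with overlapping Poisson intervals. The interval at 9.4 kb covered the start of the non-coding Lmx1b transcript Lmx1b-202, so it could hold an alternative start although it was counted as distal. The fifth distal interval, chr2:33584971-33585458 at 55.3 kb, had 185 and 196 counts and 390.4 ± 15.7 (SD, n = 2), and the libraries placed it below the interval at 9.4 kb.

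**Figure D2:**
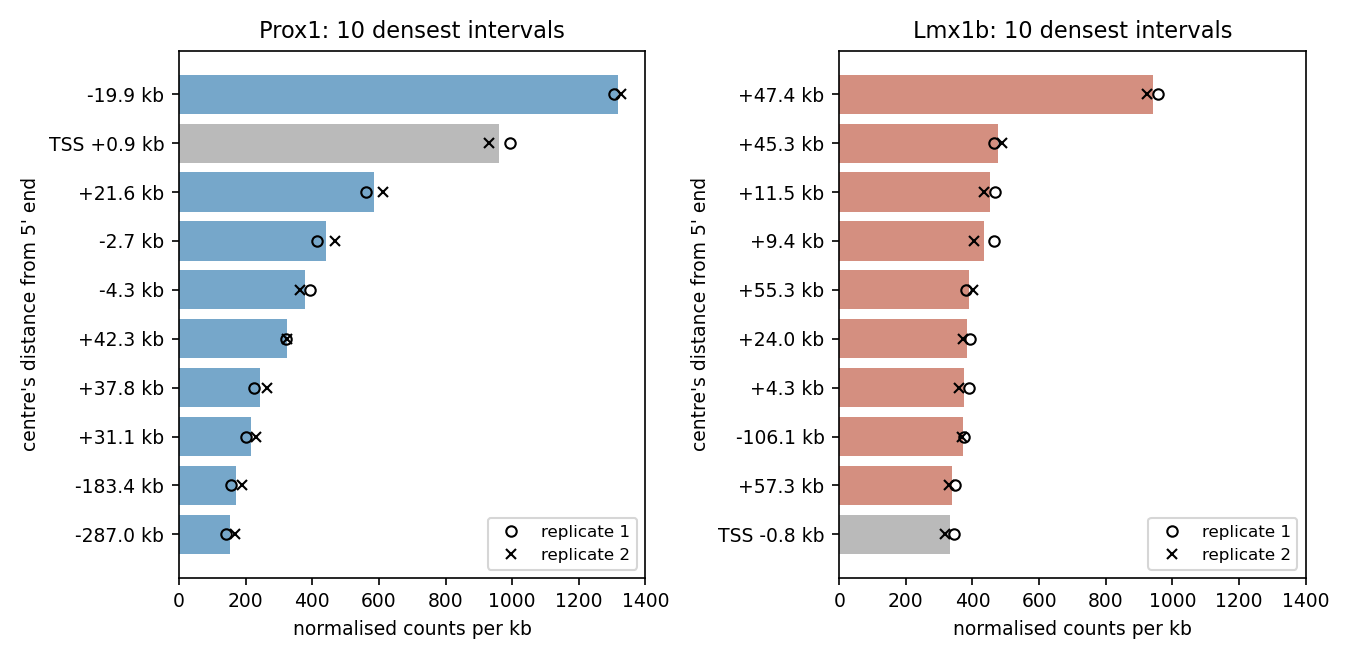
The 10 intervals of highest mean density (bars, normalised counts per kb) at each gene, named by the distance of the centre from the 5′ end, with a symbol for each replicate and the TSS interval in grey. The TSS interval has rank 2 by mean density at Prox1 with 961 and rank 10 at Lmx1b with 332.

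The fragments of the loci were distributed differently along the genes. At Lmx1b, intron 2 spans 70.2 kb and held 13 of the 37 intervals, with 55.6% ± 0.184 of the normalised counts of the locus (SD, n = 2). All 14 distal intervals inside the gene held 57.3% ± 0.0821 (SD, n = 2). The promoter interval held 18.7% ± 0.607, the 20 upstream intervals 21.7% ± 0.543 and the 2 downstream intervals 2.36% ± 0.146 (SD, n = 2). At Prox1, the promoter interval held 28.5% ± 1.76, the 8 intervals inside the gene 34.4% ± 1.15, the 19 upstream intervals 34.7% ± 0.661 and the 4 downstream intervals 2.37% ± 0.0473 (SD, n = 2). The difference between the loci in the share inside the gene body was larger than the spread of the libraries. These shares were not corrected for length. The gene fills 79.5 kb of the 209.7 kb nearest to its start at Lmx1b, but 52.7 kb of 495 kb at Prox1.

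Distal intervals inside Lmx1b had a median density of 354 ± 14.5 (SD, n = 2, 14 intervals), against 127 ± 16.2 for its 22 distal intervals outside. For Prox1 the medians were 178 ± 14.0 inside (8 intervals) and 115 ± 10.4 outside (23 intervals). Both libraries gave the inner intervals the higher median at both genes. Intervals of a locus are not replicates of it, and no test was made.

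Over all distal members, the median density was 121 ± 14.8 at Prox1 and 166 ± 3.74 at Lmx1b (SD, n = 2). The median of all distal intervals of the table was 124 ± 2.01 (SD, n = 2), which lay within the spread of the libraries at Prox1. The ratio of the Prox1 to the Lmx1b median was 0.675 in replicate 1 and 0.779 in replicate 2, a mean of 0.727 ± 0.0732 (SD, n = 2). Of the Lmx1b intervals, 5 lay in the body of the neighbouring gene Mvb12b, with densities from 156 to 372. Without them the Lmx1b median was 131, which lay within 1 SD of the Prox1 median. The lower median at Prox1 thus rested largely on intervals in the body of another gene. The promoters had the opposite order, with a Prox1 to Lmx1b ratio of 2.87 and 2.93, a mean of 2.90 ± 0.0362 (SD, n = 2). Without the division by length, for intervals of 2358 and 4154 bases, it was 1.65. The 90th percentile of all distal intervals, 398 normalised counts per kb, was reached by 3 of 31 distal members at Prox1 and 4 of 36 at Lmx1b. Together these are 10.4% of the distal members, about the share that lies above that percentile in all distal intervals.

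The lowest at Prox1, chr1:190184435-190184838, was 13.9 kb upstream and had 20 and 19 counts, a density of 48.3 ± 1.78 (SD, n = 2). It lay within Prox1os, between the promoter and the densest upstream interval. The lowest at Lmx1b, chr2:33715003-33716582, was 75.3 kb upstream, overlapped the non-coding gene 9430024E24Rik, and had 79 and 94 counts with a density of 54.7 ± 6.68 (SD, n = 2). Prox1 had 10 intervals more than 50 kb upstream, as far as 363 kb, and their densities ranged from 52.3 to 173. Lmx1b had 14 beyond 50 kb, from 54.7 to 372, the highest inside Mvb12b. In total, 11 Prox1 and 18 Lmx1b intervals had a mean normalised count over 100, which is 29 of 69, against 38.8% of all intervals.

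The loci were then set beside all 21938 protein-coding genes. The count of intervals per gene was higher than in 97.3% of genes for Prox1 and 98.1% for Lmx1b. Per 100 kb of the stretch nearest to each start, which was 495 kb for Prox1 and 209.7 kb for Lmx1b, Prox1 exceeded 46.7% of genes and Lmx1b 85.8%. The many Prox1 intervals thus went with a wide stretch without other protein-coding starts. Promoter density was higher than in 57.5% of the 14692 genes with counts at a TSS interval for Prox1 and 15.6% for Lmx1b. These ranks depend on the division by length. The median TSS interval was 1212 bases long, against 2358 at Prox1 and 4154 at Lmx1b, and no rank was taken by count. A distal interval denser than the promoter was found for 3304 of 12572 genes (26.3%), and for 53.8% of the 1449 genes with at least 20 intervals. The property shared by Prox1 and Lmx1b was therefore common among genes with at least 20 intervals. No share was taken for genes with as many intervals as these.

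**Figure D3:**
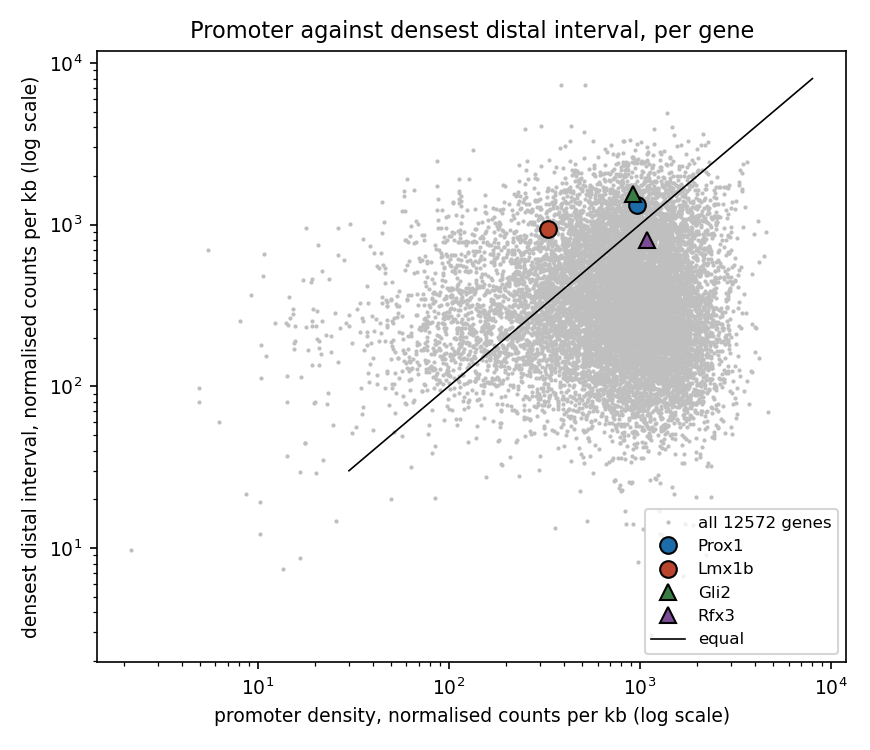
Promoter density against the density of the densest distal interval for 12572 protein-coding genes (grey points; both axes in normalised counts per kb on log scales), with Prox1, Lmx1b, Gli2 and Rfx3 marked and a line of equality. Prox1 (961 and 1316) and Lmx1b (332 and 940.3) lie above the line, and Lmx1b is farther to the left.

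Gli2, a transcription factor of the hedgehog pathway, and Rfx3, a regulator of ciliary genes, are further genes at which the study shows single elements. It describes those elements as accessible specifically in p3, the most ventral progenitors. They were not matched to the intervals given here. Gli2 had 37 intervals, a promoter density of 922 ± 4.25 and a densest distal interval of 1546 ± 138 normalised counts per kb (SD, n = 2). Rfx3 had 30 intervals, 1095 ± 64.1 at the promoter and 808 ± 10.8 at the densest distal interval (SD, n = 2). The densest distal interval exceeded the promoter at Gli2 by 1.68 ± 0.157 times. At Rfx3 it was lower than the promoter, with a ratio of 0.739 ± 0.0335 (SD, n = 2).

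Among relatives, Prox2, the other prospero gene, had 8 intervals, a promoter density of 354 ± 3.68 and a densest distal interval of 186 ± 19.5 (SD, n = 2). Prox1 exceeded it in both measures beyond the spread of the libraries. A TSS interval was present for all 12 LIM homeodomain genes, against 67.0% of all protein-coding genes. A distal interval was denser than the promoter in 7 of 12. That compares with 26.3% of all genes with both kinds of interval, and 53.8% of those with at least 20 intervals. The median promoter density of the 12 was 418, against 853 over all genes with counts at a TSS interval. Lmx1b was the third lowest of the family, above Lhx5 with 266 ± 15.2 and Lhx6 with 309 ± 2.97 and just below Lhx9 with 351 ± 6.52 (SD, n = 2). The family was not ranked without the division by length. Its closest relative Lmx1a had 458 ± 17.8 (SD, n = 2). Isl2, a gene of motor neurons, had the highest at 2268 ± 182 (SD, n = 2). With 37 intervals, Lmx1b had the most of the family.

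LMX1B acts in serotonergic neurons with a known set of genes. A TSS interval was present for 8 of 8 such genes, Lmx1b itself among them, against 67.0% of all protein-coding genes. The median promoter density of the 8 was 420.2. The lowest was at Fev, a serotonergic transcription factor, with 227 ± 18.3, and the highest at Gata3, with 1081 ± 4.06 (SD, n = 2). Lmx1b did not differ beyond its spread from Slc6a4, the serotonin transporter gene, with 325 ± 1.51 (SD, n = 2). Tph2, the enzyme of neuronal serotonin synthesis, had 273 ± 33.8 (SD, n = 2). A distal interval was denser than the promoter in 5 of the 8, among them Foxa2 and Nkx2-2. Over all genes with both kinds of interval the share was 26.3%, and 53.8% for those with at least 20 intervals.

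Promoters of marker genes were set beside the label of the cells. They cannot test it, since the study found promoters less specific to a cell type than distal elements. The progenitor markers Olig2, Nkx6-1, Sox2 and Pax6 all had a TSS interval, with a median density of 904, and Olig2 itself had 946 ± 23.2 (SD, n = 2). Single genes of the other lists were as high, with 942 ± 13.2 at Nkx2-9 and 879 ± 27.5 at Nkx2-2 (p3) and 1087 ± 37.0 at Isl1 (motor neurons; SD, n = 2). A TSS interval was present for 4 of 5 genes of p3 and floor plate (median 584; none at Shh), 3 of 4 of motor neurons (466; none at Chat) and 3 of 3 of roof plate (458). It was present for 2 of 4 of endoderm and liver (163; none at Hnf4a and Alb) and 2 of 3 of lymphatic endothelium (90.1; none at Pecam1). These are medians with genes lacking a TSS interval at 0. In endoderm and liver, Sox17 had 458 ± 28.2 and Gata4 326 ± 36.3 (SD, n = 2). In lymphatic endothelium, Flt4 had 578 ± 33.8 and Lyve1 90.1 ± 31.6 (SD, n = 2). Over all protein-coding genes, 67.0% had counts at a TSS interval. The part of other cell types in the accessibility of Prox1 and Lmx1b was not tested.

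The motifs were counted in the central 300 bases of every interval, which reach past the ends of shorter ones. A forkhead match was present in 3 of the 67 distal members, against 4.75% of all distal intervals. The 3 were a Prox1 intron 2 interval 14.5 kb into the gene, a Prox1os interval 40.4 kb upstream and the lowest Lmx1b interval. A homeodomain match was present in 5 of 67 (all distal: 7.79%), an NKX2 match in 5 (4.41%), a SOX match in 8 (19.5%) and a GLI match in 0 (0.497%). An E-box match was present in 46 of 67, which is 68.7%, against 82.8% of all distal intervals. A missing match says only that these letters were not in the window.

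Replicate error was then examined at the members. The libraries held 31876165 and 31672240 counts in all intervals, of which 15380 and 15297 fell in the members. After Benjamini-Hochberg adjustment of exact binomial p-values (scipy), 0 of 69 members differed between the libraries, as did 0 of the 119480 intervals with a count (0%). With TMM factors 6 of all intervals passed, and 0 of the members. At an unadjusted p under 0.05 there were 8 of 69 members (3 at Prox1 and 5 at Lmx1b), against 8.39% of all intervals. The labels do not say whether the libraries came from separate cultures, so the test covers only the spread between these libraries, which may be technical. The median absolute log2 ratio was 0.13 over the members and 0.16 over all intervals.

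Both promoter intervals were lower in replicate 2, with exact binomial p of 0.029 at Prox1 and 0.0299 at Lmx1b, and adjusted p of 0.533 and 0.534. The interval over the Lmx1b-202 start was lower in replicate 2 as well, with p = 0.00246 and an adjusted p of 0.298 by the exact test. The largest log2 ratio at Prox1 was 0.98, at chr1:190480665-190480967, 310.1 kb upstream, with 30 and 60 counts and an exact p of 0.00206 (adjusted 0.29). At Lmx1b it was -1.17, at chr2:33718249-33718398, 77.8 kb upstream in 9430024E24Rik, with 17 and 7 counts. This was the 1 member more than 2-fold apart, and none of these values passed the limit of 0.01.

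**Figure D4:**
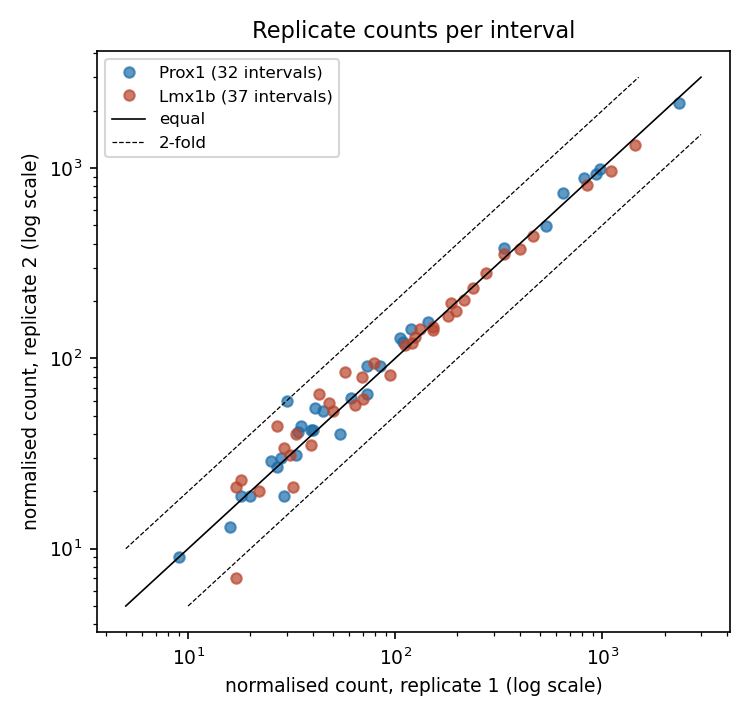
Normalised count of each of the 69 intervals in replicate 1 (horizontal) and replicate 2 (vertical), both on log scales, with Prox1 in blue, Lmx1b in red, a line of equality and dashed lines at a 2-fold difference. Intervals with high counts lie close to the line, and the Lmx1b interval with 17 and 7 counts lies beyond the 2-fold line.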

How the data were processed

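Raw fragment counts per interval were deposited by the authors. Per the file headers, featureCounts 2.0.1 counted read pairs with a minimum overlap fraction of 0.2 and assigned a fragment to each interval it overlapped. The study's methods give alignment to mm10 and MACS peak calling, and DESeq2 is named in the submitters' processing notes. A further 3 count columns matched none of the samples here. They entered no step, but the interval set was built with them.

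Counts were divided by size factors (DESeq2 1.42.0; edgeR 4.0.16 TMM as an alternative) and by length in kb. Genes came from GENCODE M21 on the same assembly. A promoter density was that of the TSS intervals of a gene. The libraries were compared at each interval by the exact binomial test (scipy 1.17.1, two-sided), Benjamini-Hochberg adjusted over the intervals with a count, at 0.01. The script was tested on simulated data. Log2 ratios used a pseudocount of 1. Fragments carried no molecular identifiers, so Poisson intervals cover counting error only.

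Members and lists were chosen with earlier results of these data known. Full values are given for the TSS intervals and, per gene, the 5 densest distal intervals, the lowest, and the one with the largest replicate difference. Other genes were named from fixed lists or where they overlap a member. Some items that met these rules are not given here. Alternatives covered scaling, length, TSS and assignment rules, count filters and each library.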

Additional observations from a re-analysis of the deposited data

How the results depend on the processing

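TMM factors, total counts and both other TSS definitions moved none of the densities they were applied to by more than the replicate SD. Little change was possible, since the factors of every method lay between 0.997 and 1.003 and the TSS definitions gave the same values. A scaling factor cancels in the ratios within a library, and leaving out 1 of 2 libraries moves a mean by less than the SD by construction, so neither tests stability. Without the division by length, the values were 2267 normalised counts at the Prox1 promoter and 1378 at the Lmx1b promoter, with a ratio of 1.65. The distal medians were then 50.0 and 88.0, with a ratio of 0.567, so both directions were kept under this change. With the gene body alone, 9 Prox1 and 15 Lmx1b intervals remained, and with a mean normalised count over 100 there were 11 and 18. Leaving out the intervals inside Mvb12b, an alternative chosen after seeing the data, gave an Lmx1b distal median of 131. That lay within 1 SD of the Prox1 median, so the order of the distal medians was not firm under this change. Leaving out each replicate in turn gave 930.1 to 993 at the Prox1 promoter, 318 to 345 at the Lmx1b promoter, 110.0 to 131 and 163 to 168 for the distal medians, and ratios of 2.87 to 2.93 and 0.675 to 0.779. With TMM factors 8 members, and with total counts 7, had an unadjusted exact p under 0.05, and 0 passed the adjusted limit. No paired analysis was possible because the series has 1 group. Depth limits the weakest intervals, where a library held as few as 7 counts.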

Other observations

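The distal intervals of the loci differed in base composition. The median GC content was 56.4% over the 36 distal Lmx1b intervals and 48.2% over the 31 of Prox1, against 48.4% over all distal intervals and 59.9% over TSS intervals. The dense Lmx1b intervals in intron 2 ranged widely in CpG content. The observed to expected CpG ratio was 0.23 in the densest interval, 0.542 in the interval over the Lmx1b-202 start and 0.569 in the interval 24.0 kb into the gene, against medians of 0.208 over all distal and 0.68 over TSS intervals. At Prox1 the ratio was 0.582 in the intron 3 interval and 0.598 in the interval 4.25 kb upstream. The promoter intervals had 0.648 at Prox1 and 0.737 at Lmx1b. Whether base composition affected the counts was not tested.

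The median share of soft-masked repeat sequence was 10.0% over distal Prox1 and 6.59% over distal Lmx1b intervals, and 9.04% over all distal intervals.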
